A study of Mus musculus with 4 samples.

Results

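Messenger RNA of 10 autophagy and lysosome genes was followed in the left ventricle of mice whose aorta had been narrowed by a band, a surgery that overloads the ventricle with pressure. The genes were Map1lc3a, Map1lc3b, Gabarapl1 and Sqstm1, which act on the autophagosome, and Psap, Ctsd, Ctsb, Ctsl, Lamp1 and Lamp2, which act in the lysosome. They were chosen by function after intensity differences between these same arrays had been seen, among them that of Map1lc3a, so every count below describes them and supports nothing further. All probe sets whose platform symbol was 1 of the 10 were taken, which gave 21 of 22690 probe sets. A floor of 64 intensity units (log2 6) was reached by 20 of them on 1 array or more, and 1 lay below it on all 4. The array carries 1 probe set for each of 5 of the genes and several for each of the other 5.

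The series holds 4 biotin-labelled arrays, 1 per group, made to ask what the cytokine IL-18 does in pressure-overload hypertrophy. The groups were banded IL-18 null hearts, sham-operated IL-18 null hearts, banded wild-type hearts and sham-operated wild-type hearts, and the IL-18 null groups are called null from here on. Each array carried pooled RNA, from 6 banded and 5 sham IL-18 null mice, and from 5 to 6 mice per group by the series design for wild type. For the banded IL-18 null pool the labels give C57BL/6 as the background and 1 week of banding. The background of the other groups, the banding time in wild type and the age of the mice are not given in the sources used here. With 1 array per group no difference has an error or a test, and all differences are on the log2 scale, with values under 64 units set to 64. "At least" marks a difference in which 1 of the compared arrays lay below that floor. In whole ventricle, fewer cells of a type and less RNA per cell cannot be told apart.

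Autophagy encloses cytoplasm, protein aggregates and worn mitochondria in a double membrane, the autophagosome, which fuses with the lysosome. LC3 and GABARAP proteins are coupled to a lipid of that membrane, and cargo receptors such as p62 tie ubiquitin-marked cargo to them. In the lysosome, proteases and lipid hydrolases at acid pH break the cargo down, behind a membrane lined by LAMP glycoproteins. Heart muscle cells, which are rarely replaced, rely on this route to renew their contents, and inherited loss of LAMP2 in people causes a cardiomyopathy, Danon disease.

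The wild-type arrays lay at opposite ends in the position of their signal along transcripts, with wild-type banded the farther from the null arrays. For Gapdh, Actb and the bacterial control dap, which the array probes at 3 positions, the 3′ minus middle log2 intensity averaged 3.01 ± 1.47 on the null banded array, 3.37 ± 1.14 on the null sham array, 0.72 ± 1.14 on the wild-type banded array and 4.74 ± 0.14 on the wild-type sham array (SD over 3 transcripts). In 8 of the 9 control probe sets wild-type banded was highest and wild-type sham lowest of the 4 arrays. The middle probe set of Gapdh had 3885.1 units in null banded, 1619.6 in null sham, 17062.5 in wild-type banded and 83.6 in wild-type sham. Wild-type sham was also lowest at the 3′ position of all 3 transcripts. The 3′ probe set of dap had 1669.2 units in null banded, 1646.6 in null sham, 1818.0 in wild-type banded and 188.1 in wild-type sham. That of Gapdh had 12239.1, 10743.7, 15321.5 and 2044.5 units in the same order, and that of Actb 2583.3, 2262.5, 7728.2 and 498.9. The part of these control differences in the differences below was not tested. The probe set of Il18, the deleted gene, lay between 7.4 and 9.1 units on all 4 arrays, below the floor, so it could not check the labels.

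In 8 of the 10 genes at least 1 probe set was brightest in banded wild-type hearts and dimmest in sham-operated wild-type hearts, an order that 27.2% of all 5168 measured genes had in at least 1 probe set. Genes with more probe sets have more chances to meet that rule, and among the 1513 with several the share was 40.1%, against 4 of the 5 members with several. Between the null arrays 18 of 19 member probe sets stayed within 2-fold. In null hearts, banded was 2-fold or more above sham for 0 of 19 measured member probe sets and below it for 1, against 6.64% above and 4.2% below over all 6743 measured probe sets with 1 gene (5.25% and 5.06% after quantile normalization). The median difference was 0.20 for the members and 0.06 for all, and with 1 probe set per gene the members' median was -0.03. In wild-type hearts, banded was 2-fold or more above sham for 12 of 20 member probe sets and below it for 0, with a median of 2.22. Over all 7200 probe sets measured there, 24.9% were above and 11.5% below, with a median of -0.02. After quantile normalization those shares were 19.6% and 22.8%, and 11 member probe sets were above and 1 below.

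Genotype differences depended on which pair of arrays was compared. In sham hearts, the null array was 2-fold or more above wild type for 9 of 19 member probe sets and below it for 0, with a median of 0.87, against 18.4% above and 6.02% below over all probe sets (15.2% and 12.1% after quantile normalization). In banded hearts, null was above wild type by that much for 0 of 20 and below it for 6, with a median of -0.16, against 5.11% above and 10.9% below over all (3.42% and 12.9% after cyclic loess). Wild-type banding and the sham comparison both subtract the wild-type sham array, so they are not independent of each other. With null sham in place of that array, a choice made after its values were seen, wild-type banded was 2-fold or more above for 7 of 20 member probe sets and below for 0, with a median of 0.25. That setting mixes genotype with banding, and over all probe sets it gave 9.06% above and 1.32% below.

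**Figure D1:**
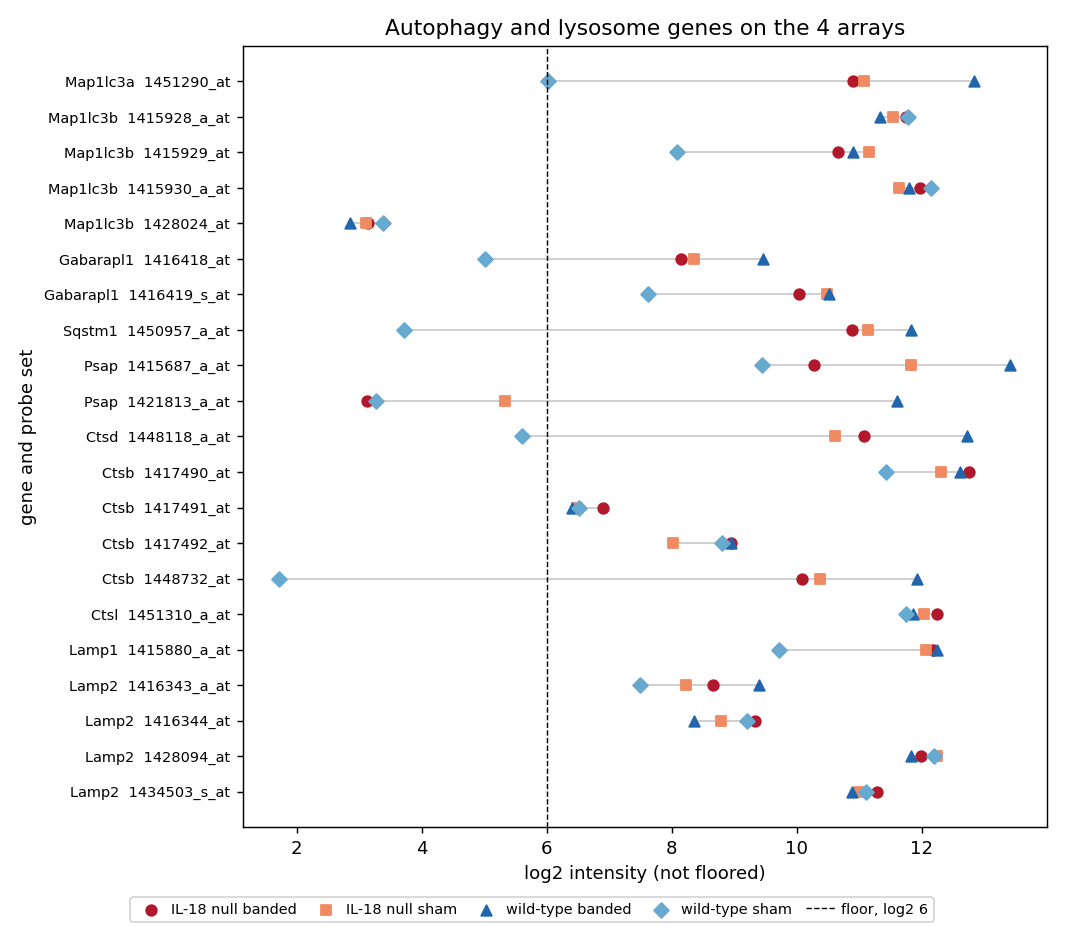
Log2 intensity (x axis, not floored) of all 21 probe sets of the 10 genes (y axis) on the 4 arrays. Each point is 1 array of pooled RNA, the grey line joins the lowest and highest of the 4, and the dashed line is the floor at log2 6. The wild-type sham point lies far to the left of the others for Map1lc3a, Gabarapl1, Sqstm1, Ctsd, Lamp1 and 1 probe set each of Map1lc3b and Ctsb, while for Ctsl and the other Map1lc3b and Ctsb probe sets the 4 points lie close together or less far apart.

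Many lysosome genes are known to carry the E-box CACGTG near their start, the core of the site bound by TFEB and TFE3, which switch on lysosome and autophagy genes together. In RefSeq windows of 250 bases upstream of a gene's start (GRCm38.p6), 9 in number and found for 8 of the 10 genes, CACGTG was present in Lamp1, Ctsd and Ctsl. The motif reads the same on both strands, and 6.02% of all 32851 windows hold it. Lamp1 holds 4 copies, which 7 of all windows reach (0.0213%), and Ctsd holds 2, which 0.429% reach. The longer CLEAR element, CACGTG with GT before and AC after it, was in 0 member windows and in 0.24% of all. These 4 windows are shown because genes with the letters differ in their values (Ctsd and Lamp1 against the level Ctsl), and a gene without them, Sqstm1, had values like those of Ctsd. Capitals mark CACGTG, and all are written 5′ to 3′ on the gene's strand, ending at the base before the start. Lamp1 lies at chr8:13158911-13159160 on the plus strand, Ctsd at chr7:142387828-142388077, Ctsl at chr13:64370521-64370770 and Sqstm1 at chr11:50210821-50211070, the last 3 on the minus strand.
Lamp1: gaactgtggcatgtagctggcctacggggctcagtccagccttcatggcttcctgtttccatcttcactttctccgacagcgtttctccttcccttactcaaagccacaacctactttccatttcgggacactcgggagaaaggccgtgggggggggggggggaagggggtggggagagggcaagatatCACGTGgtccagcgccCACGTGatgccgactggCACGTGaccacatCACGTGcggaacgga
Ctsd: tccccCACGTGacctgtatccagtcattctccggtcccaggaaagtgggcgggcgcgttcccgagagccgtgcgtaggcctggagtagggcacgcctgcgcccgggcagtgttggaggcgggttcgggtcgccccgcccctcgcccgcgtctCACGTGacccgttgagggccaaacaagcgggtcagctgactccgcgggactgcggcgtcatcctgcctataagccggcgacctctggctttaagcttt
Ctsl: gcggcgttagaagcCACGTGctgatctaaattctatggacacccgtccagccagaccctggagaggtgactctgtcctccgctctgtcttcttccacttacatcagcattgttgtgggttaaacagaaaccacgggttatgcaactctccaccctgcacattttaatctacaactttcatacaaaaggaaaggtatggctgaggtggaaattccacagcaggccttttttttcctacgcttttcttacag
Sqstm1: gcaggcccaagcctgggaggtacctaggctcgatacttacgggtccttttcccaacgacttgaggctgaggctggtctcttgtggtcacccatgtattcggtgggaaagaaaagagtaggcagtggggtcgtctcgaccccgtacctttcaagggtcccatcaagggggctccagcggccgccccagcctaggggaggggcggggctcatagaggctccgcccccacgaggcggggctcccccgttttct

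Map1lc3a, which encodes LC3A, a protein coupled to the growing autophagosome membrane, had the largest wild-type difference of the members measured on both arrays. Its probe set 1451290_at had 1906.4 units in null banded, 2162.7 in null sham, 7322.9 in wild-type banded and 65.0 in wild-type sham. Wild-type sham, just above the floor, was far below the other arrays, and wild-type banded was the highest. The log2 difference between banded and sham was -0.18 in null and 6.82 in wild type. Probe sets of Ctsd, Ctsb, Sqstm1 and Psap with wild-type sham below the floor have only lower bounds, and without a floor each of the 4 exceeded it, at 7.12, 10.2, 8.11 and 8.35. Null minus wild type was -1.94 in banded hearts and 5.06 in sham hearts.

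Map1lc3b encodes LC3B, the relative most used to count autophagosomes, and its probe sets did not move together. The probe set 1415929_at had 1618.2 units in null banded, 2285.4 in null sham, 1915.2 in wild-type banded and 272.0 in wild-type sham. It was thus low in wild-type sham only, with banded minus sham at -0.50 in null and 2.82 in wild type. The probe set 1415928_a_at, drawn from the same accession, had 3428.4 units in null banded, 2974.4 in null sham, 2573.2 in wild-type banded and 3510.1 in wild-type sham. A further one of that accession, 1415930_a_at, had 4000.6, 3172.6, 3538.0 and 4545.5 units on the arrays in the same order. Neither spanned more than 1.43-fold over the 4 arrays, and wild-type sham was the highest in both. The probe set 1428024_at, of another accession, lay between 7.2 and 10.4 units on all arrays, below the floor.

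Gabarapl1 encodes a GABARAP family protein that is coupled to the same membrane as LC3. Its probe set 1416418_at had 283.5 units in null banded, 327.6 in null sham, 704.1 in wild-type banded and 32.3 in wild-type sham, where it was below the floor. Banded minus sham was -0.21 in null and at least 3.46 in wild type, where banded was at least 11-fold above sham. The probe set 1416419_s_at, whose suffix marks probes shared between transcripts, had 1053.5 units in null banded, 1432.1 in null sham, 1469.4 in wild-type banded and 196.5 in wild-type sham. Both probe sets had the same order of arrays, but in banded hearts null minus wild type was -1.31 for the first and -0.48 for the shared one.

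Sqstm1 encodes p62, which binds ubiquitin-marked cargo and LC3 and is itself degraded by autophagy. Its probe set 1450957_a_at had 1902.5 units in null banded, 2264.1 in null sham, 3628.8 in wild-type banded and 13.1 in wild-type sham. The wild-type sham value lay below the floor, and the other 3 arrays were within 1.91-fold of each other. Banded minus sham was -0.25 in null and at least 5.83 in wild type, and null minus wild type was -0.93 in banded hearts.

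Psap, the prosaposin gene, encodes the precursor of the saposins, small proteins that help lysosomal enzymes reach their sphingolipid substrates. It was the only one of the 10 genes with a 2-fold difference between the null arrays. Its probe set 1415687_a_at had 1232.8 units in null banded, 3618.8 in null sham, 10893.0 in wild-type banded and 694.3 in wild-type sham. Banded was 2.94-fold lower than sham in null (log2 -1.55) and 15.69-fold higher than sham in wild type (log2 3.97). The probe set 1421813_a_at, of the same accession, had 8.7 units in null banded, 40.2 in null sham, 3129.2 in wild-type banded and 9.6 in wild-type sham. It was measured in wild-type banded alone, at least 48.9-fold above the floor that stands for each other array, so it cannot check the null difference.

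Ctsd encodes cathepsin D, the main aspartic protease of the lysosome. Its probe set 1448118_a_at had 2169.0 units in null banded, 1561.5 in null sham, 6784.3 in wild-type banded and 48.8 in wild-type sham. Again wild-type sham was below the floor and wild-type banded the highest. Banded minus sham was 0.47 in null and at least 6.73 in wild type, and in banded hearts null minus wild type was -1.65.

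Ctsb encodes cathepsin B, a cysteine protease, and its 4 probe sets, all drawn from 1 accession, gave the widest disagreement among the members. The probe set 1448732_at had 1084.5 units in null banded, 1326.5 in null sham, 3880.1 in wild-type banded and 3.3 in wild-type sham. The probe set 1417490_at had 6923.5 units in null banded, 5056.8 in null sham, 6261.8 in wild-type banded and 2763.0 in wild-type sham. In the first, wild-type sham lay near the bottom of the array's range, whereas in the other it stayed bright and only 2.27-fold below wild-type banded. The probe set 1417492_at had 491.5 units in null banded, 259.3 in null sham, 494.2 in wild-type banded and 447.9 in wild-type sham, and 1417491_at had 119.7, 90.1, 84.7 and 92.0 units in the same order. Banded minus sham was 0.92 in null and 0.14 in wild type for 1417492_at, and 0.41 and -0.12 for 1417491_at.

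Ctsl encodes cathepsin L, another cysteine protease, and was the steadiest of the genes with 1 probe set. Its probe set 1451310_a_at had 4871.6 units in null banded, 4193.7 in null sham, 3728.7 in wild-type banded and 3438.2 in wild-type sham. All 4 arrays lay within 1.42-fold, and banded was above sham by 0.22 in null and by 0.12 in wild type.

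Lamp1 encodes one of the abundant glycoproteins that coat the inner face of the lysosomal membrane. Its probe set 1415880_a_at had 4638.1 units in null banded, 4289.5 in null sham, 4880.8 in wild-type banded and 841.7 in wild-type sham. The first 3 arrays were nearly level, with differences of 0.11 for null banding and -0.07 for genotype in banded hearts, and wild-type banded stood 2.54 above wild-type sham.

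Lamp2, whose splice forms serve autophagosome fusion and direct protein import into the lysosome, had 4 measured probe sets. The probe set 1416343_a_at had 404.5 units in null banded, 298.3 in null sham, 669.6 in wild-type banded and 179.2 in wild-type sham, with banded minus sham at 0.44 in null and 1.90 in wild type. The probe set 1416344_at, of the same accession, had 642.7 units in null banded, 443.9 in null sham, 329.3 in wild-type banded and 588.3 in wild-type sham, with differences of 0.53 and -0.84. In wild type these had opposite signs. The brightest, 1428094_at, had 4079.2 units in null banded, 4823.6 in null sham, 3638.3 in wild-type banded and 4701.7 in wild-type sham. The probe set 1434503_s_at had 2510.8 units in null banded, 2050.4 in null sham, 1899.0 in wild-type banded and 2214.6 in wild-type sham. Each of the last pair stayed within 1.33-fold over the 4 arrays. Which splice form each probe set reads is not given in the files.

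In the windows printed above, the Lamp1 copies begin 61, 45, 28 and 15 bases before the start, those of Ctsd 245 and 98 bases before it, and that of Ctsl 236 bases before it. Lamp1 and Ctsd were both lower in wild-type sham than on any other array, whereas Ctsl with its copy was level. Sqstm1, Gabarapl1 and the Psap probe set 1415687_a_at, with no copy in their windows, were also lowest in wild-type sham. Map1lc3b and Lamp2 had no copy either. Their brightest probe sets, 1415930_a_at and 1428094_at, stayed within 1.43-fold and 1.33-fold, while 1415929_at and 1416343_a_at were lowest in wild-type sham. A match of letters is a description of the window only.

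Probe sets of the same gene differed in their size of change, and which comparison showed the widest span varied between the genes. Between the null arrays the banding differences spanned 1.21 for Ctsb, 0.83 for Map1lc3b, 0.78 for Lamp2 and 0.23 for Gabarapl1. Over all 1337 genes with several probe sets measured there, the median span was 0.51 and 21.17% spanned 2-fold or more. Between the wild-type arrays the spans were 6.04 for Ctsb, 3.26 for Map1lc3b, 2.74 for Lamp2, 1.64 for Psap and 0.56 for Gabarapl1, against a median of 1.25 over 1485 genes, of which 58.99% spanned 2-fold or more. For null minus wild type the spans in banded hearts were 2.47 for Psap, 2.34 for Ctsb, 1.69 for Lamp2, 0.83 for Gabarapl1 and 0.66 for Map1lc3b, against a median of 0.67 over all genes. In sham hearts they were 5.16 for Ctsb, 3.59 for Map1lc3b, 1.14 for Lamp2 and 0.51 for Gabarapl1, against a median of 0.97. Ctsb and Map1lc3b thus spanned more in both comparisons with wild-type sham than in either other one, while Psap and Gabarapl1 spanned most between the banded arrays. The positions of these probe sets along their transcripts are not in the files used here.

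**Figure D2:**
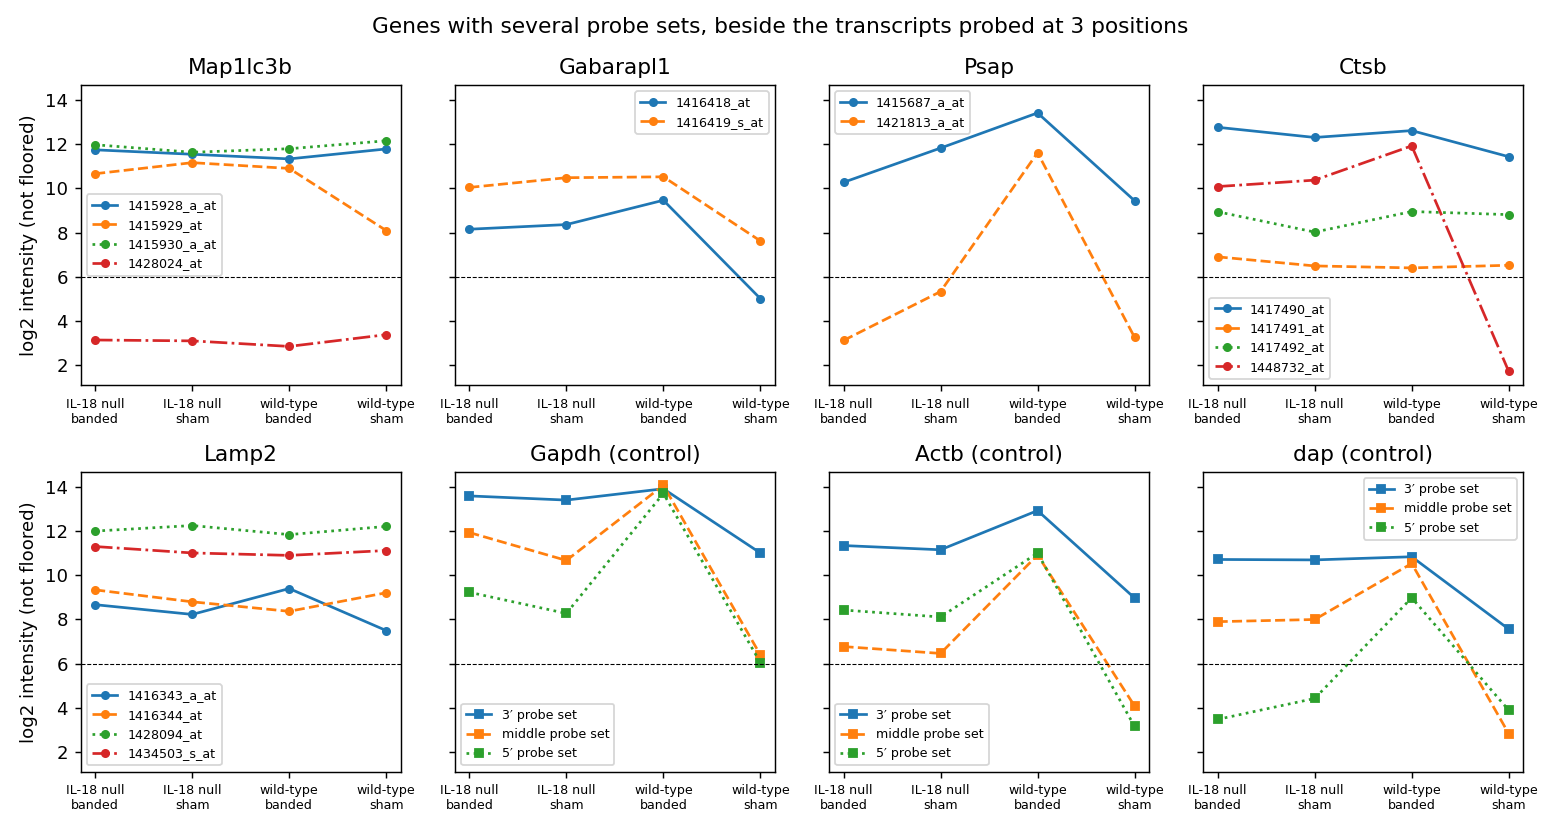
Log2 intensity (y axis, not floored) on the 4 arrays (x axis) for each probe set of the 5 genes with several, and for the 3′, middle and 5′ probe sets of the controls Gapdh, Actb and dap. Lines join the arrays of 1 probe set and show no order in time, and the dashed line is the floor at log2 6. The Ctsb probe set 1448732_at and the Psap probe set 1421813_a_at peak in wild-type banded like the middle control probe sets, while other probe sets of Ctsb, Map1lc3b and Lamp2 run level.

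The same order of arrays, with wild-type sham lowest and wild-type banded highest, was found in 9 of the 20 measured member probe sets and in 21.8% of all 7366 measured probe sets. Wild-type sham was at least 2-fold below each of the other arrays in 8 of the 20, against 12.6% of all. By the distance between profiles centred on their own means, the 5 probe sets of other genes most like the Ctsb probe set 1448732_at, the member with the widest range (10.2 on the log2 scale), belonged to Tecr, Gpx4, Des, Acaa2 and P4hb. Their root mean square distances over the 4 arrays ran from 0.22 for Tecr to 0.76 for P4hb, out of 7346 probe sets compared. Des, the desmin gene, had 1352.1 units in null banded, 1130.9 in null sham, 5593.1 in wild-type banded and 6.6 in wild-type sham. Gpx4, a glutathione peroxidase gene, had 2635.4 units in null banded, 2397.3 in null sham, 7223.8 in wild-type banded and 10.8 in wild-type sham.

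**Figure D3:**
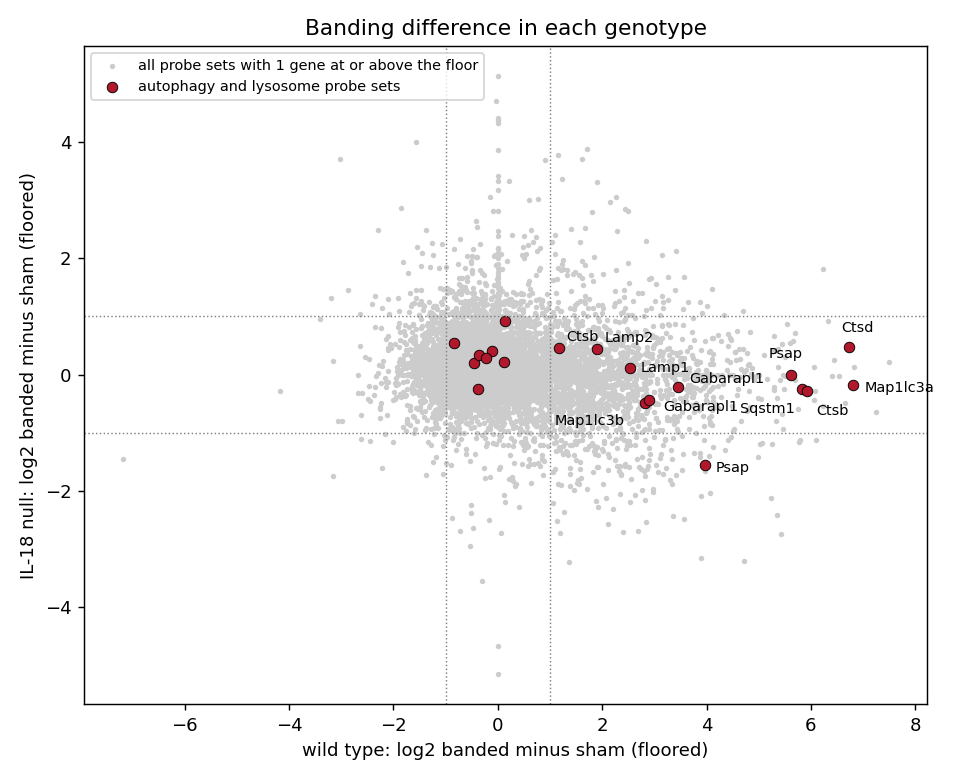
Log2 banded minus sham in IL-18 null (y axis) and in wild type (x axis), with values floored at log2 6. Grey points are all probe sets with 1 gene that reach the floor on 1 array or more, red points are the 20 measured member probe sets, and dotted lines mark 2-fold. The named points, at least 2-fold higher in wild-type banded, spread to the right up to 6.82 for Map1lc3a while all but 1 Psap probe set stay within 2-fold on the y axis. The other Psap point has no measured value in IL-18 null and is drawn at 0 there.

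The null banding difference minus the wild-type one was below 0 for 11 of the 19 probe sets measured in both genotypes, against 46.7% of all 6577 such probe sets. It was below -2 for 9 of the 19, against 14.4% of all, and above 2 for 0, against 3.42%. It was -7.0 for Map1lc3a, -6.08 for Sqstm1 and -6.25 for Ctsd, the last pair resting on a wild-type sham value below the floor. For Psap 1415687_a_at it was -5.53, for Lamp1 -2.42, and for Ctsl 0.10. The highest was 1.37, for the Lamp2 probe set 1416344_at. No replicate array allows a test of this difference.

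The wider pathway was read from 200 genes in 10 lists, and its shares past 2-fold lay nearer to those of all genes than the members' did in the comparisons with wild-type sham. A probe set of its own was found for 162 of them, and the brightest was used for each gene. Between the null arrays 7 of 105 measured genes were 2-fold or more higher in banded (6.67%) and 2 lower (1.9%), against 6.98% and 2.53% of all genes, and by the same choice of probe set the members had 0 of 10 higher and 1 lower. Between the wild-type arrays 29 of 105 were higher in banded (27.6%) and 12 lower (11.4%), against 21.7% and 12.8% of all genes, and the members had 7 of 10 higher and 0 lower. In sham hearts 22 of 102 were higher in null than in wild type (21.6%) and 7 lower (6.86%), against 16.3% and 6.29% of all genes, and the members had 6 higher and 0 lower. In banded hearts 6 of 106 were higher in null (5.66%) and 11 lower (10.4%), against 5.7% and 7.74% of all genes, and the members had 0 higher and 3 lower. Pooled over the 10 lists, the shares thus lay within 6 percentage points of those of all genes, while single lists lay farther off, as given below.

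Among the genes that build the autophagosome, most stayed within 2-fold, as did most of all genes. Past 2-fold were 6.98% higher and 2.53% lower of all genes in null banding, and 21.7% and 12.8% in wild-type banding. Of the measured genes of initiation and nucleation, 0 of 9 were 2-fold or more above sham in null banded and 1 was below it, and in wild-type banded 1 of 10 was above and 1 below. Rb1cc1, the one below in wild type, which encodes a scaffold of the ULK1 kinase complex, had 535.2 units in null banded, 545.8 in null sham, 366.2 in wild-type banded and 1096.6 in wild-type sham. Becn1, a subunit of the lipid kinase complex that starts the membrane, had 1064.5 units in null banded, 1387.6 in null sham, 1111.6 in wild-type banded and 697.2 in wild-type sham. Of 7 measured genes of the conjugation machinery, 0 passed 2-fold in null banding, and in wild-type banding 2 were above and 1 below. Gabarapl2, a relative of Gabarapl1, had banded minus sham at -0.63 in null and 1.18 in wild type. Atg10, a conjugating enzyme, stood at 0.01 in null and -1.26 in wild type. Atg5 stood at -0.93 in null and -0.95 in wild type, both within 2-fold. Atg12, to which Atg5 is coupled, moved by no more than 0.29 in any comparison.

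Cargo receptor genes were mixed, with 0 of 10 past 2-fold in null banding, and 4 above and 2 below in wild-type banding. Of all genes, 6.98% were above and 2.53% below in null banding, and 21.7% and 12.8% in wild-type banding. Phb2, a mitochondrial receptor, had banded minus sham at 0.04 in null and 2.11 in wild type, and Fkbp8, another mitochondrial receptor, at 0.12 and 1.73. Fundc1, a receptor on the outer mitochondrial membrane, stood at -0.33 in null and -1.87 in wild type. Bnip3, a hypoxia-induced receptor for mitochondria, was within 2-fold at 0.32 in null and 0.02 in wild type.

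Lysosomal enzymes outside the 10 genes were mixed. The shares of all genes past 2-fold were 6.98% higher and 2.53% lower in null banding, and 21.7% and 12.8% in wild-type banding. Of 8 measured cathepsins and proteases, 2 were 2-fold or more above sham and 0 below in null banded, and 3 above and 1 below in wild-type banded. Of the glycosidases, lipases and other hydrolases, 1 of 12 was above and 0 below in null banded, and 2 of 13 were above and 1 below in wild-type banded. Ctss, cathepsin S, which is abundant in macrophages, had 2453.2 units in null banded, 516.4 in null sham, 759.5 in wild-type banded and 963.5 in wild-type sham. It was 2.25 higher in banded than in sham null hearts and stood at -0.34 between the wild-type arrays. Ctsa, a carboxypeptidase that protects other lysosomal enzymes, had 562.5 units in null banded, 363.0 in null sham, 1382.3 in wild-type banded and 79.5 in wild-type sham, an order like that of Ctsd but with all values above the floor. Hexa, a subunit of beta-hexosaminidase, stood at 0.71 in null banding and 3.22 in wild-type banding, and Lipa, the acid lipase, at 1.20 and -0.64. Manba, beta-mannosidase, lay between 150.1 and 152.0 units on all arrays. Of 2 measured cystatins, 0 passed 2-fold in null banding and 1 was above sham in wild-type banded. It was Cst3, the cathepsin inhibitor cystatin C, which had 9859.9 units in null banded, 7410.7 in null sham, 7806.8 in wild-type banded and 1939.6 in wild-type sham.

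Of the lysosomal membrane and transport genes, 1 of 12 was 2-fold or more above sham and 1 below in null banded, and 4 of 10 were above and 0 below in wild-type banded. All genes had 6.98% above and 2.53% below in null banded, and 21.7% and 12.8% in wild-type banded. Laptm4a, a lysosomal membrane protein gene, was the one below in null, with 1517.4 units in null banded, 3320.2 in null sham, 3617.4 in wild-type banded and 748.4 in wild-type sham, the order seen in Psap. Scarb2, which carries glucocerebrosidase to the lysosome, stood at -0.40 in null and 2.51 in wild type. Laptm5, a lysosomal protein of blood cells, stood at 1.29 in null and -0.34 in wild type. Vacuolar proton pump subunits, which acidify the lysosome, had 2 of 14 at 2-fold or more above sham and 0 below in null banded, with a median of 0.45. In wild-type banded 6 were above and 1 below, with a median of -0.01. The medians over all genes were 0.08 in null and -0.08 in wild type. Atp6v1f, a subunit of the pump's ATP-splitting part, had 816.5 units in null banded, 816.3 in null sham, 993.3 in wild-type banded and 81.0 in wild-type sham, whereas Atp6v0a2 lay between 249.5 and 262.5 units on all arrays.

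Fusion genes had 0 of 11 past 2-fold in null banding, and 2 above and 2 below in wild-type banding. For these and the regulators below, the shares of all genes were 6.98% above and 2.53% below in null banding. In wild-type banding they were 21.7% and 12.8%. Vamp7, a SNARE protein gene, stood at 0.18 in null and -1.86 in wild type, and Stx17, the syntaxin of the autophagosome, at 0.31 and -1.18. Regulators had 1 of 20 above and 0 below in null banding, and 4 above and 3 below in wild-type banding. Trp53inp2, which encodes a protein that binds LC3 in the nucleus, had 4133.0 units in null banded, 5658.3 in null sham, 5687.7 in wild-type banded and 483.1 in wild-type sham. Its relative Trp53inp1 stood at 0.17 in null banding and -2.28 in wild-type banding, the opposite sign to Trp53inp2 in both. Lamtor2, part of the complex that holds the mTOR kinase at the lysosome, stood at 0.11 in null and 1.60 in wild type.

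**Figure D4:**
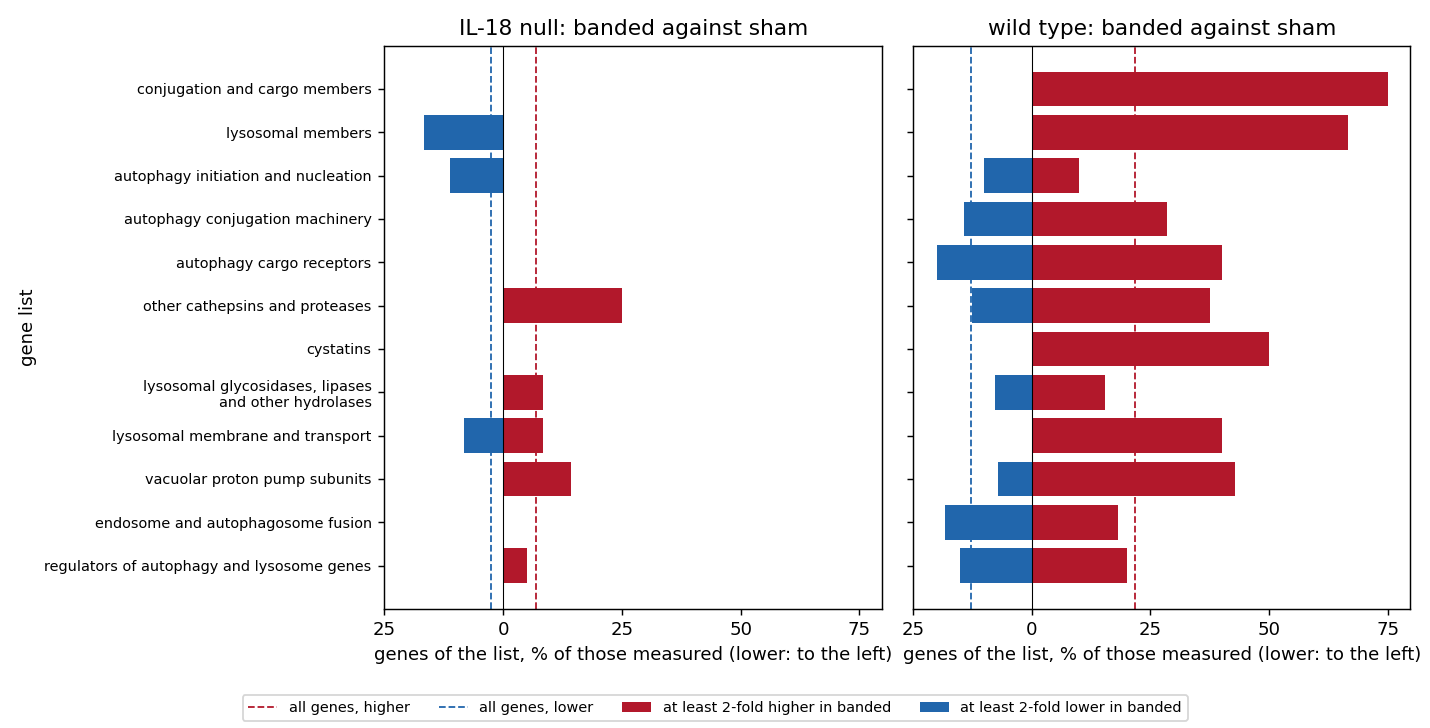
Share of the measured genes of each list (y axis) that were at least 2-fold higher (red, to the right) or lower (blue, to the left) in banded than in sham hearts, in percent (x axis), with 1 probe set per gene, for IL-18 null and for wild type. Dashed lines are the shares over all genes, 6.98% and 2.53% in null and 21.7% and 12.8% in wild type. The longest bars to the right are those of the member genes in wild type, and the cystatin bar there is 1 of 2 genes.

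Markers of macrophages, cells rich in lysosomes, and of fibroblasts were brighter on both banded arrays than on their sham arrays in summed intensity. Over all genes, with the brightest probe set of each, 6.98% were 2-fold or more above sham in null banded and 2.53% below. In wild-type banded 21.7% of all genes were above by that much and 12.8% below. In each genotype 10 macrophage markers were measured, Cd68 in null alone and C1qa in wild type alone. Of these, 6 were 2-fold or more above sham in null banded and 5 in wild-type banded, with 0 below by that much in either. The other 4 were also higher in null banded, within 2-fold, whereas the other 5 were lower in wild-type banded, within 2-fold, among them Csf1r, with 867.1 units in wild-type banded and 1380.0 in wild-type sham. Their summed intensity was 11338.2 units in null banded, 4314.5 in null sham, 6874.0 in wild-type banded and 4498.8 in wild-type sham. Itgam, Cx3cr1, Ccr2, Fcgr1 and Cd163 lay below the floor on every array. Fibroblast markers had 6 of 10 higher in null banded and 7 of 10 in wild-type banded, with 1 lower in each, and summed to 36779.6 units in null banded, 12756.0 in null sham, 24616.1 in wild-type banded and 8647.0 in wild-type sham. Heart muscle markers, all 10 of them above the floor on every array, summed to 228931.0 units in null banded, 234741.8 in null sham, 250763.7 in wild-type banded and 190493.5 in wild-type sham. Neutrophil markers summed to 1244.4 units in null banded, 806.1 in null sham, 313.3 in wild-type banded and 1313.8 in wild-type sham. Endothelial sums lay between 24549.0 and 29839.1 units, and smooth muscle and pericyte sums between 10032.0 and 12809.4 units. Of lymphocyte, red cell and fat cell markers, 2, 1 and 0 reached the floor on any array. The part of any of these cells in the values of the 10 genes was not tested.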

How the data were processed

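RNA of pooled left ventricles was measured on 4 arrays, 1 per group, and groups were taken from the sample titles. The deposited values are intensity values per probe set, which the authors computed with GCRMA per the submitters' processing notes. Its version, settings and any later scaling are not given in the sources used here. The scale was read as linear from the values, which run from 1.5 to 43811.1 with 1 decimal. Of 22690 probe sets, 20380 carry 1 gene in the platform annotation and enter the background. Those with several genes (691), the controls (64) and those without a gene symbol were left out. Values were put on the log2 scale and raised to a floor of log2 6, and a probe set entered a comparison if either array reached it. A difference was counted at 2-fold or more. The number of arrays limits the precision, and no test was run. Fold counting was checked only on simulated, large changes of bright probe sets. That check covers the arithmetic and says nothing about values near the floor or differences between real arrays. The members, lists, floor and named genes were chosen with earlier results of these data known. From each list, the 3 genes with the largest difference in any comparison among those above the floor on all 4 arrays were eligible to be named, with the steadiest gene. Alternatives were floors at log2 5 and 7, no floor, quantile and cyclic loess normalization (limma 3.58.1), 1 probe set per gene, no _s_at or _x_at probe sets, a 1.5-fold threshold and, added after the values were seen, IL-18 null sham in place of wild-type sham. Python 3.11.15 and R 4.3.3 were used.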

Additional observations from a re-analysis of the deposited data

Results flagged for a closer look

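Some member probe sets moved at least 2-fold in opposite directions under the same contrast in different groups; with 1 array per group the differences between these differences were not tested. The Psap probe set 1415687_a_at did so with banding, at -1.55 in IL-18 null and 3.97 in wild type, a difference of -5.53 on the log2 scale. The same 4 values make its genotype differences, -3.14 in banded and 2.38 in sham hearts, differ by 5.53.

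For genotype, null minus wild type, the Map1lc3a probe set 1451290_at stood at -1.94 in banded and 5.06 in sham hearts, which differ by 7.0. The Ctsd probe set 1448118_a_at stood at -1.65 and 4.61, which differ by 6.25. The Ctsb probe set 1448732_at stood at -1.84 and 4.37, which differ by 6.21, while its 3 other probe sets had no such reversal. The Gabarapl1 probe set 1416418_at stood at -1.31 and 2.36, which differ by 3.67. The brighter Gabarapl1 probe set 1416419_s_at stood at -0.48 and 2.87, so it was within 2-fold in banded hearts. The sham differences of Ctsd, Ctsb 1448732_at and Gabarapl1 1416418_at are bounds, since their wild-type sham values lay below the floor. All of these results use the wild-type sham array, and the 3′ minus middle control value was 0.72 for wild-type banded, the lowest of the 4, and 4.74 for wild-type sham, the highest.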

How the results depend on the processing

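Each count was recomputed under 8 alternatives and each median under 7, since the 1.5-fold threshold does not bear on a median. Floors at log2 5 and 7, no floor, cyclic loess and leaving out _s_at and _x_at probe sets left each of the 8 counts within 1.5 times its value. Under the same settings and quantile normalization each median, turned from log2 into a fold of intensity, stayed within 1.5-fold of its main value. On the log2 scale, cyclic loess moved the null banding median from 0.20 to 0.09 and the banded genotype median from -0.16 to -0.35. After quantile normalization 1 member probe set was lower in wild-type banding and 1 higher in IL-18 null among banded hearts, where there had been 0; both calls were of Lamp2 1416344_at, and the cause was not tested. At 1.5-fold, 1 was higher in null banding, 1 lower in wild-type banding, 1 lower in null among sham hearts and 1 higher among banded hearts, against 0 each at 2-fold. With 1 probe set per gene, which leaves 10, 7 were higher in wild-type banding and 3 were lower in null among banded hearts. The sham genotype median was then 2.37, against 0.87, and the null banding median was -0.03, against 0.20. With null sham in place of wild-type sham, added after the values were seen and run for wild-type banding alone, 7 were higher, against 12. The median was 0.25, against 2.22. Of 486 recomputed values of single probe sets, 480 stayed on their side of 2-fold, 5 passed it, 1 dropped below it (Ctsb 1417490_at in wild-type banding, 0.91 after quantile normalization) and 0 of those past 2-fold changed direction. The median over all probe sets moved from -0.02 to -0.34 after quantile normalization and to 0.16 after cyclic loess in wild-type banding, and from -0.05 to -0.26 after quantile normalization in the sham genotype comparison. No paired analysis was possible because each group had 1 array. Signal below the floor limits Sqstm1, Ctsd, Gabarapl1 1416418_at, Psap 1421813_a_at and Ctsb 1448732_at to bounds where only 1 of the compared arrays reached it. The other measured probe sets of Gabarapl1, Psap and Ctsb reached the floor on all 4 arrays.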
